A study of Mus musculus with 6 samples.

Results

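Nestin, encoded by Nes, and 7 other genes of cytoplasmic intermediate filaments were followed in mouse cortex that expressed poly-GA or GFP alone. The 8 genes were taken by symbol from a table of 18283 genes. They are Nes, the glial filaments Gfap, Vim and Synm, and the neuronal filaments Nefl, Nefm, Nefh and Ina. The family was chosen by the measured CPM (reads per gene scaled to the normalized library size) of Nes, which was already known to be higher with poly-GA than with GFP in these libraries. The values of this contrast therefore describe the genes and are given without p-values. All 8 genes passed the filter on low counts, which left 14324 genes to be fitted. The data were read counts from RNA sequencing of wild-type mouse cortex, with 3 libraries labelled AAV-GFP-GA and 3 labelled AAV-GFP, all labelled 5-month, which may be an age or a time after injection. The proteins were delivered by adeno-associated virus (AAV), and poly-GA is a chain of alternating glycine and alanine, here fused to the fluorescent protein GFP that the controls carried alone. In patients poly-GA arises by translation of the repeat expansion in C9orf72, which is known from amyotrophic lateral sclerosis and frontotemporal dementia. The sources used here do not give the promoter or serotype of the vector, the cells it reached or the number of animals behind a library. The SDs and SEs therefore measure the spread between these libraries, which may be technical in part.

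Intermediate filaments are rope-like polymers of the cytoskeleton, and each cell type builds them from its own set of subunits. Nestin is made by neural progenitors, by the endothelium of growing or activated vessels and by some reactive astrocytes, and it assembles with vimentin because it forms filaments poorly alone. GFAP and vimentin form the filaments of astrocytes, to which the large protein synemin can be linked, and both accumulate in reactive astrocytes. Vimentin is also the filament of endothelium and of other vascular and meningeal cells. In neurons the light, medium and heavy neurofilament subunits and α-internexin assemble together and set the calibre of axons.

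The starts of Nes, Vim and Gfap are shown because Nes differed most between the groups and the other genes encode its usual partner filaments. The sequences are from RefSeq for GRCm38.p6, each 300 bases long, from 250 bases before the annotated start to 50 after. They cover chr3:87970843-87971142 on the plus strand for Nes, chr2:13574061-13574360 on the plus strand for Vim and chr11:102897151-102897450 on the minus strand for Gfap. Capitals mark exact matches, on either strand, to the GC box GGGCGG, the TATA box TATAAA and the CCAAT box CCAAT, and no matches overlapped.
Nes: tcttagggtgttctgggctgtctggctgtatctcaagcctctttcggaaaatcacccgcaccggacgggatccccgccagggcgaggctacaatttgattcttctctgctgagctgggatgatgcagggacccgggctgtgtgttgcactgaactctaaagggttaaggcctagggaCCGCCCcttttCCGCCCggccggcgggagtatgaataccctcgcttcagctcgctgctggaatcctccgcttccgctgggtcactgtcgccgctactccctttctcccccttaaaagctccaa
Vim: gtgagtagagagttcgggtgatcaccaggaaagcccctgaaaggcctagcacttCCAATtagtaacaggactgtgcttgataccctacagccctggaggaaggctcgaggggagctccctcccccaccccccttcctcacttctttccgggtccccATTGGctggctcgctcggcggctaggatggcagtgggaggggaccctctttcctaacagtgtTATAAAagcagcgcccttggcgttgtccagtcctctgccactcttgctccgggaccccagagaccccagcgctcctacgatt
Gfap: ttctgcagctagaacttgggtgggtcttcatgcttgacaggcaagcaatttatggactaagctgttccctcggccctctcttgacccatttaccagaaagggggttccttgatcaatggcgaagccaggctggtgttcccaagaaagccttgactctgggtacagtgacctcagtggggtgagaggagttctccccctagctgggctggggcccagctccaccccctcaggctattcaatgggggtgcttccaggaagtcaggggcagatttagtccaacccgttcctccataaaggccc
The Nes start held 2 GC boxes, which began 73 and 62 bases before the start, and neither of the other motifs. The Vim start held a TATA box 32 bases before the start and CCAAT boxes at 196 and 94 bases. None of the 3 motifs was found in the Gfap window. Among 32851 windows of this length in the table, 35.7% held a GC box, 13.6% a TATA box and 37.4% a CCAAT box. G and C made up 58.7% of the Nes window, 59.3% of the Vim window and 55.7% of the Gfap window, against a median of 52.7%. Of the 8 genes 5 had an entry in the table. The Ina window held GC boxes at 111 and 12 bases, and the Synm window a CCAAT box at 78 bases.

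Facts of the whole series that touch these genes are few. The libraries held 16748754 to 17576017 expected counts. AAV-GFP replicate 3 had 1 read from 4 Y-linked genes, where the other 5 libraries had 2018 to 2270. Reads of 19 intestinal epithelium genes were 35 and 33 in AAV-GFP replicates 1 and 2 and 218 to 359 in the other 4 libraries, so that this split of the libraries cannot be told apart from the groups except through AAV-GFP replicate 3. Values without that library, and values against it alone, are given beside each gene. In the latter fit the GFP arm is 1 library, which is assumed to vary like the others, so its SEs come from the spread of the other libraries. All 9 neuron markers and all 11 astrocyte markers were detected, with summed levels of 11140 to 12000 CPM and 6294 to 7267 CPM.

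Nes was the filament gene that differed most between the groups. It stood at 24.3, 23.7 and 24.3 CPM in AAV-GFP-GA replicates 1, 2 and 3 and at 11.8, 9.86 and 8.43 CPM in AAV-GFP replicates 1, 2 and 3. The lowest poly-GA library lay above the highest GFP library. The poly-GA libraries were nearly level, with a coefficient of variation of 1.53% against 17.1% with GFP alone. They held 420 to 424 reads of Nes, for which counting alone would give a wider spread, so no difference in spread is read from this. The edgeR fit over all genes put the log2 fold change of poly-GA over GFP at 1.26 ± 0.11 (SE), with a 95% interval from 1.01 to 1.52. It was 1.15 ± 0.10 without AAV-GFP replicate 3 and 1.51 ± 0.13 against that library alone. Of the 8 genes 1, Nes, passed an adjusted p of 0.05 in the higher direction, where 0.0209% of all tested genes did, and none passed in the lower direction, where 0% did. The counts of the other tests were the same, 1 of 8 higher and none lower, where DESeq2 called 0.0628% of all tested genes higher and 0.00698% lower, limma-voom 0.0209% and 0%, the fit without AAV-GFP replicate 3 0.263% and 0.236%, and the fit against that library alone 0.0419% and 0.0209%. Because Nes was chosen for this difference, nothing is read from that count. Nes lies on chromosome 3 from 87971093 to 87980451 in mm10, and no other annotated gene overlaps it.

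**Figure D1:**
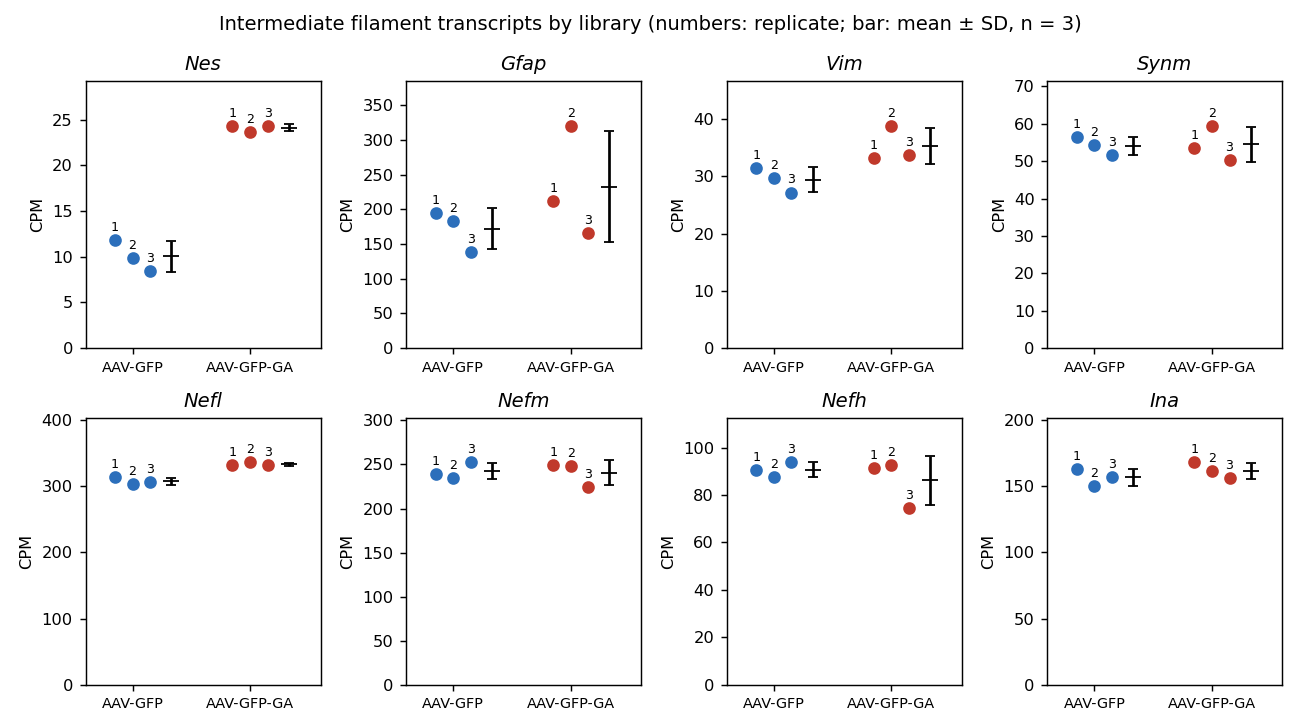
Level of each filament gene in CPM (vertical axis, from 0) in the 3 AAV-GFP and 3 AAV-GFP-GA libraries, with replicate numbers beside the points and the mean ± SD as a bar. Nes lies between 8.43 and 11.8 CPM with GFP alone and between 23.7 and 24.3 CPM with poly-GA, while Gfap is drawn up by AAV-GFP-GA replicate 2 at 321 CPM.

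Markers of cells that can make nestin were read beside it. In bulk tissue, fewer cells of a type and less RNA per cell cannot be told apart. The 15 endothelial markers summed to 304 to 362 CPM with poly-GA and 249 to 298 CPM with GFP alone. These sums did not overlap between the groups, and the ratio of means was 1.19. All 15 markers were detected, and 14 had log2 fold changes above 0, where 48.6% of all tested genes did. For 6 of the 15 the poly-GA libraries lay wholly above the GFP libraries, where this held for 6.09% of all tested genes. By edgeR 0 passed the adjusted threshold and by DESeq2 1 did, Flt1, where 0.0209% and 0.0628% of all tested genes were called higher. Single markers ranged from 0.963-fold for Cldn5 to 1.63-fold for Tie1, so the sum is not a uniform scale. Per summed endothelial marker level, Nes was 7.99%, 6.55% and 7.69% with poly-GA and 4.24%, 3.97% and 2.83% with GFP, a ratio of means of 2.01. Its groups therefore also lay apart on this scale. The 10 pericyte and smooth muscle markers summed to 241 to 285 CPM against 228 to 249 CPM, with overlapping groups, and the Nes ratio of means per these markers was 2.18. The 13 neural progenitor markers, all detected, summed to 149 to 151 CPM with poly-GA and 146 to 170 CPM with GFP alone, a ratio of means of 0.939. The Nes ratio of means was 2.56 per neural progenitor markers and 2.43 per astrocyte markers. The 18 reactive astrocyte markers summed to 104.4 to 124.5 CPM with poly-GA and 98.1 to 112 CPM with GFP alone, with overlapping groups. Ependymal markers summed to 10.1 to 15.2 CPM against 11.3 to 16.3 CPM. Choroid plexus markers summed to 42.9 to 539 CPM with poly-GA and 235 to 1122 CPM with GFP, with overlapping groups. Which cells carried the Nes reads was not tested.

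Vim, the vimentin gene, was slightly higher with poly-GA, by a ratio of 1.2 beside 1.19 for the summed endothelial markers. It stood at 33.2, 38.9 and 33.7 CPM with poly-GA and 31.5, 29.7 and 27.2 CPM with GFP alone. The groups did not overlap, but the nearest libraries differed by less than the SD within either group, 3.14 and 2.15 CPM. Its log2 fold change of 0.26 ± 0.09 (SE) had a 95% interval of 0.06 to 0.46, and Vim did not pass the threshold over all genes. It was 0.21 ± 0.09 when AAV-GFP replicate 3 was omitted and 0.38 ± 0.11 against it alone. Per summed endothelial marker level, Vim was 10.9%, 10.8% and 10.7% with poly-GA and 11.3%, 12% and 9.12% with GFP, a ratio of means of 1.0 with overlapping groups. Per pericyte and smooth muscle markers Vim was 13.8%, 13.7% and 12.2% against 12.6%, 13.1% and 11%, with overlapping groups. The ratio of means was 1.21 per astrocyte markers, also with overlapping groups, and 1.27 per neural progenitor markers, where the groups did not overlap. The part of vessel content in the Vim difference was not tested.

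Gfap, the filament gene of astrocytes, varied most within a group. It stood at 211, 321 and 166 CPM with poly-GA and 195, 183 and 139 CPM with GFP alone, so the groups overlapped. AAV-GFP-GA replicate 2 was far above its group, and replicate 3 was the lowest of each group. Its log2 fold change of 0.43 ± 0.20 (SE) had a 95% interval of -0.01 to 0.88. Omission of AAV-GFP-GA replicate 2 left 0.13 ± 0.14. The value was 0.30 ± 0.21 without AAV-GFP replicate 3 and 0.74 ± 0.27 against that library alone. The 11 astrocyte markers did not follow it, with sums of 6294, 6456 and 7267 CPM with poly-GA and 6737, 6913 and 6513 CPM with GFP. The summed 18 reactive astrocyte markers were highest in the same library as Gfap, at 124.5 CPM, with 98.1 to 112 CPM in the other 5. Reads of 5 dentate granule cell markers, a list drawn up after the data were seen, summed to 68.0, 60.5 and 33.4 CPM with poly-GA and 84.95, 59.1 and 29.1 CPM with GFP alone. Replicate 3 of each group was thus lowest in these hippocampal markers as well as in Gfap. The highest libraries differed: Gfap peaked in AAV-GFP-GA replicate 2, with a dentate sum of 60.5 CPM, and the dentate sum in AAV-GFP replicate 1, with 195 CPM of Gfap. The part of dissection in the Gfap values was not tested.

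**Figure D2:**
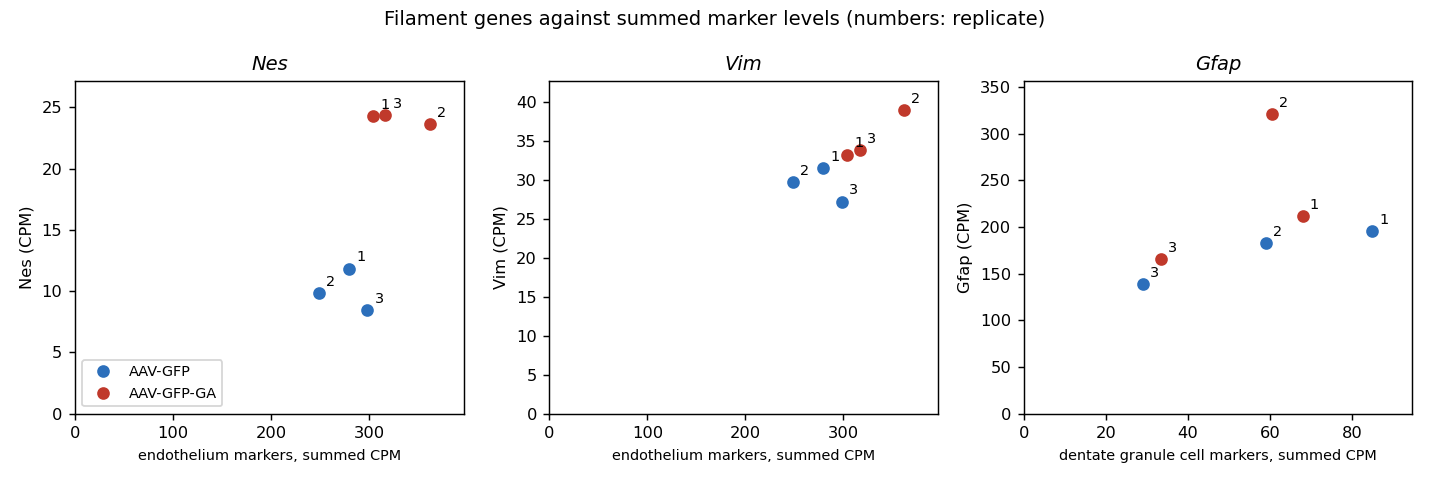
Nes and Vim against the summed level of 15 endothelial markers, and Gfap against the summed level of 5 dentate granule cell markers, all in CPM with axes from 0, for each library. The endothelial sums do not overlap, at 304 to 362 CPM with poly-GA and 249 to 298 CPM with GFP alone, and neither do the Nes levels. Vim is highest in the library with the highest endothelial sum (362 CPM). Gfap is lowest in replicate 3 of each group. Its highest level, in AAV-GFP-GA replicate 2, goes with a dentate sum of 60.5 CPM, beside 59.1 CPM in AAV-GFP replicate 2.

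Synm, which encodes the linker-like filament protein synemin, did not differ beyond the spread. It had 53.6, 59.5 and 50.4 CPM with poly-GA and 56.5, 54.3 and 51.7 CPM with GFP alone. The log2 fold change of Synm was 0.01 ± 0.08 (SE), and its 95% interval ran from -0.16 to 0.18 (0.896-fold to 1.13-fold). Its sign changed to -0.02 ± 0.08 without AAV-GFP replicate 3, and against that library it was 0.08 ± 0.10.

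The neurofilament genes were close to level. Nefl, the light subunit on which the other subunits assemble, had 331.2, 335.7 and 331 CPM with poly-GA and 312.9, 303.2 and 305.3 CPM with GFP alone. All poly-GA values lay above all GFP values, and the difference was 8.30% of the GFP level, a log2 fold change of 0.12 ± 0.05 (SE) with a 95% interval from 0.0039 to 0.23. Nefm, the medium subunit, had 249.5, 248.4 and 224.7 CPM against 239, 235 and 252.5 CPM, and Nefh, the heavy subunit, 91.5, 92.8 and 74.4 CPM against 90.7, 87.4 and 93.8 CPM. In both genes AAV-GFP-GA replicate 3 was the lowest of all 6 libraries and the groups overlapped. Their log2 fold changes were -0.01 ± 0.06 and -0.07 ± 0.08 (SE). Without AAV-GFP-GA replicate 3 they were 0.04 ± 0.06 and 0.03 ± 0.07, so that both signs changed. Without AAV-GFP replicate 3 they were 0.03 ± 0.06 for Nefm, again with a changed sign, and -0.04 ± 0.09 for Nefh, and against that library alone -0.07 ± 0.08 and -0.12 ± 0.11. For Nefl the same 2 fits gave 0.11 ± 0.05 and 0.12 ± 0.06, and for Ina 0.05 ± 0.06 and 0.04 ± 0.07. Ina, the α-internexin gene of central neurons, had 168, 161 and 156 CPM against 163, 150.0 and 157 CPM, with a log2 fold change of 0.05 ± 0.06 (SE). The 95% intervals of the 4 neuronal genes lay between 0.837-fold, the lower bound of Nefh, and 1.17-fold, the upper bound of Nefl. The 9 neuron markers, with 11140 to 12000 CPM against 11320 to 11540 CPM, had overlapping groups, as did 7 markers of fast-spiking and deep-layer projection neurons, with 776.6 to 814 CPM against 803 to 813 CPM.

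**Figure D3:**
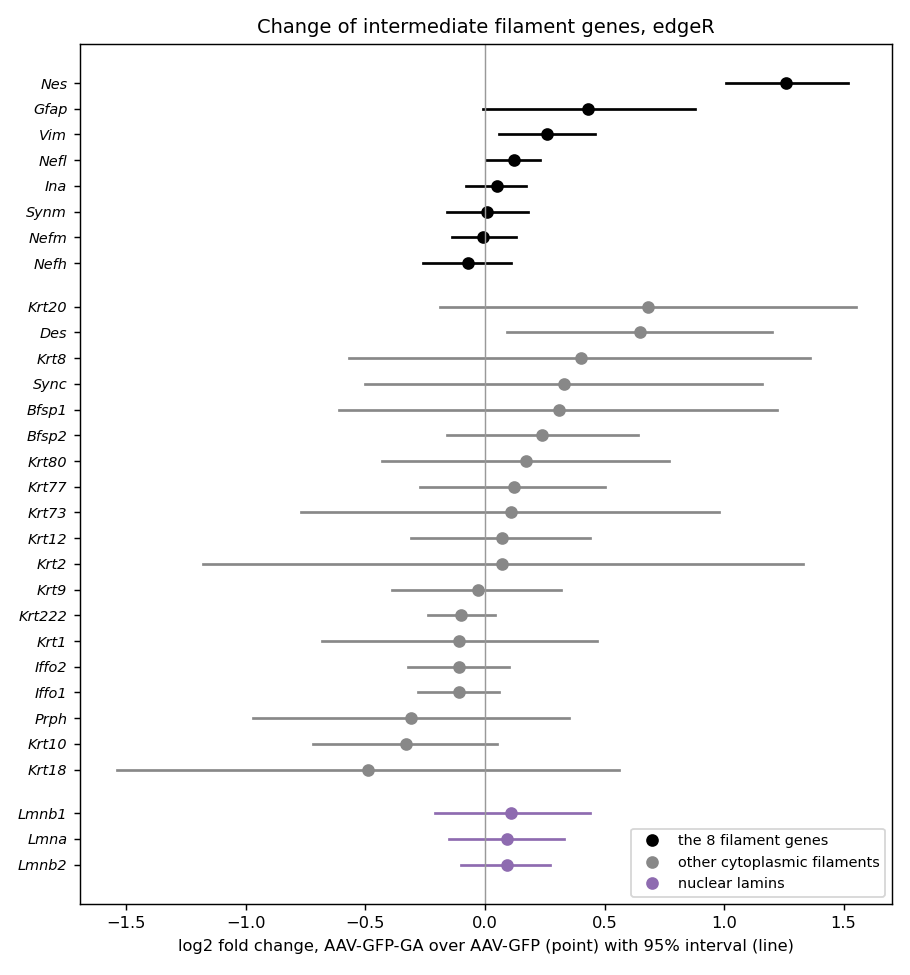
Log2 fold change of AAV-GFP-GA over AAV-GFP (points) with its 95% interval (lines) from the edgeR fit, for the 8 filament genes, 19 tested genes of other cytoplasmic filaments and 3 nuclear lamins. The interval of Nes, from 1.01 to 1.52, lies apart from those of the other 7 genes of its group, the highest of which ends at 0.88. Nes was chosen by this contrast, so nothing is read from the separation.

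Over the family, 6 of 8 log2 fold changes were above 0, with a median of 0.08, where 48.6% of all 14324 tested genes were above 0 and the median was -0.0039. The groups did not overlap, with poly-GA higher, for 3 of the 8 genes (Nes, Vim and Nefl), where this held for 6.09% of all tested genes. In none of the 8 did poly-GA lie wholly below GFP, where 5.79% of all tested genes did. The contrast chose the family, so these counts are descriptions. Pairs of genes were also compared by the root mean square difference of their log2 CPM over the 6 libraries, after subtraction of each gene's mean. The closest pairs were Nefl with Ina at 0.052, Nefm with Ina at 0.055 and Nefm with Nefh at 0.065. Next came Synm with Nefm at 0.079 and Synm with Ina at 0.081, before Nefl with Nefm at 0.085. Genes that vary little between libraries lie close on this measure, so closeness here does not show a shared pattern. The most distant were the pairs of Nes, from 0.52 with Vim to 0.70 with Nefh. Gfap was closest to Vim, at 0.24.

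**Figure D4:**
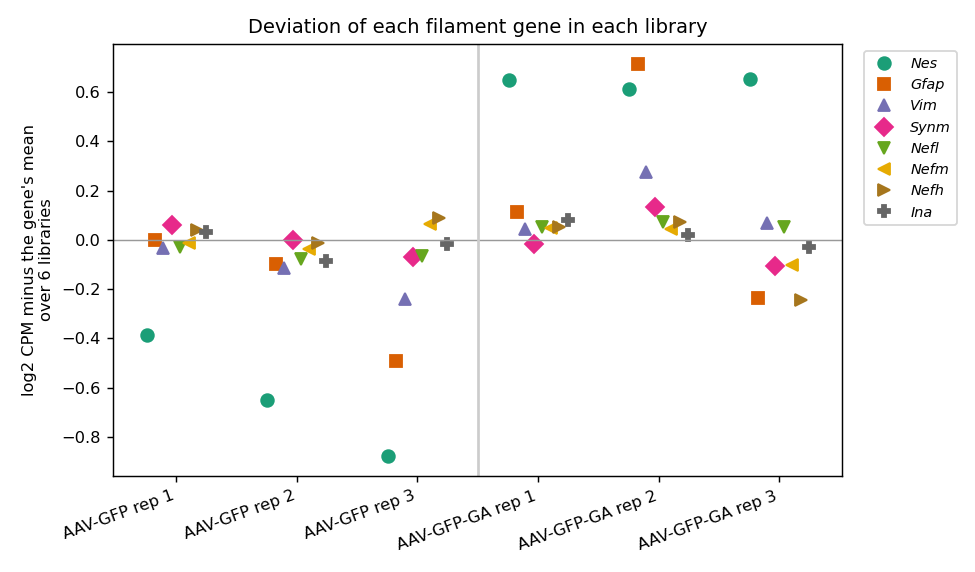
Deviation of each filament gene from its mean over the 6 libraries, in log2 CPM (vertical axis), for each library (horizontal axis). Nes lies between 0.613 and 0.653 in every AAV-GFP-GA library and between -0.877 and -0.386 in every AAV-GFP library, while Gfap reaches 0.715 in AAV-GFP-GA replicate 2 and -0.49 in AAV-GFP replicate 3.

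Levels can be compared between genes only per length, here as CPM per kilobase of the longest annotated coding sequence. That length leaves out the untranslated parts of transcripts, which can also give reads, so the order and shares of the genes are approximate. On this scale Nefl was highest, with a mean level over 6 libraries of 196, followed by Gfap at 157, Ina at 106, Nefm at 94.9, Nefh at 27.0, Vim at 23.2, Synm at 11.6 and Nes at 3.05. Over the 6 libraries the ranges of Nefl and Gfap overlapped, as did those of Gfap and Ina and those of Nefh and Vim. Within libraries, Gfap was above Ina in 6 of 6, Nefl above Gfap in 5 of 6 and Nefh above Vim in 5 of 6. Nes ranged from 1.51 to 4.35 CPM per kilobase, below the lowest Synm level of 10.8 in every library. Its share of the summed level of the 8 genes was 0.665% ± 0.0830 with poly-GA and 0.307% ± 0.0391 with GFP alone (SD, n = 3). The 4 neuronal genes took 66.6% ± 5.92 and 71.3% ± 3.23 of the sum (SD, n = 3), and their lowest share, 59.9%, was in AAV-GFP-GA replicate 2, where Gfap took 33.9%. There were 5.47 to 6.57 times as many Vim as Nes reads per kilobase with poly-GA and 10.6 to 12.9 times as many with GFP. The level of Nefl per kilobase was 2.07, 2.11 and 2.30 times that of Nefm with poly-GA and 2.04, 2.01 and 1.89 times with GFP alone. These subunit ratios did not overlap between the groups, yet AAV-GFP-GA replicate 1 and AAV-GFP replicate 1 differed by less than either SD, 0.122 and 0.0828. The level of Nefl was 7.27, 7.26 and 8.94 times that of Nefh with poly-GA and 6.93, 6.96 and 6.53 times with GFP. The groups again did not overlap. The nearest libraries, at 7.26 and 6.96, differed by less than the poly-GA SD of 0.965 but by more than the GFP SD of 0.238. The ratios of Nefm to Nefh overlapped between the groups, with means of 3.61 with poly-GA and 3.43 with GFP. Those of Nefl to Ina also overlapped, with means of 1.9 and 1.81. The shares of Nefm, Nefh and Synm in the sum of the 8 genes were wholly lower with poly-GA, at 13.3% to 15.2% against 15.4% to 17.7% for Nefm, 3.87% to 4.34% against 4.55% to 5.13% for Nefh and 1.73% to 1.84% against 1.97% to 1.99% for Synm. A share also falls when another gene of the sum is higher, and the CPM of these 3 genes overlapped between the groups. The shares of Gfap, Vim, Nefl and Ina overlapped between the groups.

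**Figure D5:**
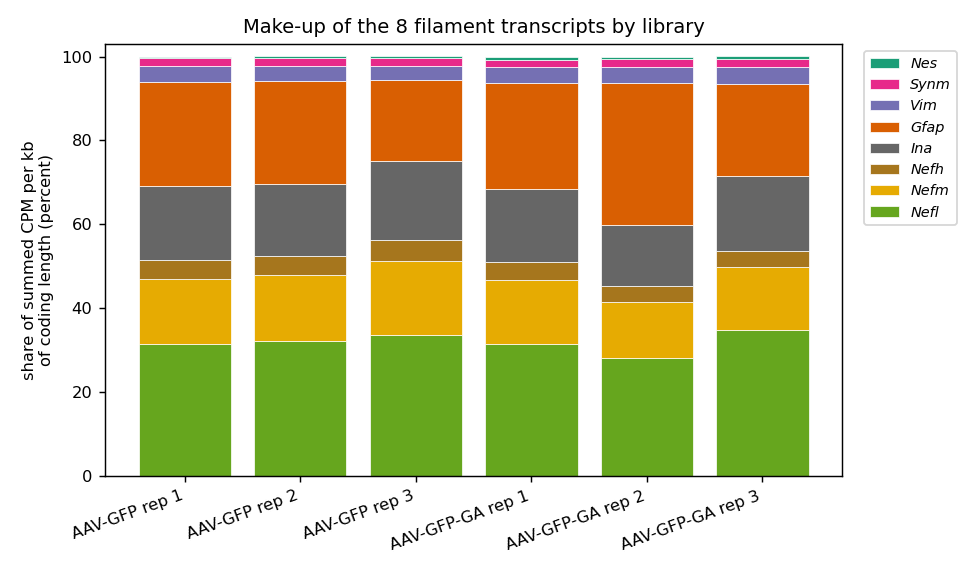
Share of each filament gene in the summed CPM per kilobase of coding length of the 8 genes (vertical axis, percent) in each library. The neuronal genes Nefl, Nefm, Nefh and Ina take 59.9% to 75.0% of every library, Gfap takes 19.3% to 33.9%, and Nes is a thin band of at most 0.743%.

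Profiles over the 6 libraries were also compared with 11513 other tested genes of at least 5 CPM on average, by the same root mean square difference. Closest to Nes were Klf4 (0.136), Gvin1 (0.238), Klf2 (0.272), Apold1 (0.292) and Osmr (0.335). The Nes profile is mostly its group difference, the contrast that chose it, so the search returns genes with a like difference. Their log2 fold changes were 0.66 to 1.18, and no link between these genes is read from it. Klf4, a Krüppel-like transcription factor found in endothelium, had 18.1, 21.8 and 18.8 CPM with poly-GA and 9.39, 8.43 and 8.14 CPM with GFP alone. Osmr encodes a receptor subunit for oncostatin M and is also 1 of the 18 reactive astrocyte markers. Closest to Gfap were Slc14a1 (0.125), a urea transporter of astrocytes, Tnxb (0.163), Hopx (0.165), Lrrc32 (0.169) and Dusp5 (0.175). Slc14a1 had 11.9, 16.5 and 10.5 CPM against 12.7, 11.4 and 9.06 CPM, with the same library highest as for Gfap. Closest to Nefl were Zmynd8 (0.0139), Tsen34 (0.0149), Macf1 (0.0163), Ank2 (0.0193) and Atxn2 (0.0200). Macf1 encodes a plakin that links the cytoskeletal systems, and Ank2 encodes an ankyrin of the axonal membrane. The Nefl profile ran only from -0.076 to 0.071 around its mean, so genes that vary as little lie close to it. A shared role was not tested.

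Other genes of the filament system were read from 5 lists. Of all tested genes edgeR called 0.0209% higher and 0% lower, DESeq2 0.0628% and 0.00698%, and limma-voom 0.0209% and 0%. At these shares, 0 calls in lists this short say little about their genes. Of 25 genes of other cytoplasmic filaments, 19 were tested and 0 passed the adjusted threshold in either direction by edgeR, DESeq2 or limma-voom. Their median log2 fold change was 0.07. At an unadjusted p under 0.05, 1 was higher and 0 were lower by edgeR, where 3.19% of all tested genes were higher and 3.45% lower. That gene, singled out after its values were seen, was Des, which encodes desmin, the filament of muscle and of pericytes. It had 2.289, 3.213 and 1.904 CPM with poly-GA and 1.735, 1.494 and 1.501 CPM with GFP alone, a log2 fold change of 0.65 ± 0.25 (SE) with an adjusted p of 0.742 by edgeR's quasi-likelihood test. The most expressed genes of this list, Krt222 and Iffo1, had log2 fold changes of -0.10 ± 0.06 and -0.11 ± 0.08 (SE).

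The 3 nuclear lamins were all tested and 0 passed in either direction by edgeR, DESeq2 or limma-voom, with a median of 0.09. By edgeR 0 of them had an unadjusted p under 0.05, where 3.19% of all tested genes were higher and 3.45% lower. Lmna, the lamin of differentiated cells, had a log2 fold change of 0.09 ± 0.11 (SE), and Lmnb2 0.09 ± 0.08. Of 7 plakin linkers, which tie filaments to other structures, 6 were tested and 0 passed by any of these tools, with a median of -0.03. At an unadjusted p under 0.05 by edgeR 0 were lower and 1 was higher, beside 3.45% and 3.19% of all tested genes. It was Macf1, chosen after its values were seen, with 363, 370.1 and 353 CPM against 336, 327 and 332.5 CPM, a log2 fold change of 0.13 ± 0.05 (SE) and an adjusted p of 0.742 by edgeR. Dst, the linker dystonin, had 0.08 ± 0.06 (SE).

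Of 21 kinases, phosphatases, chaperones and turnover factors that act on filament proteins, 19 were tested and 0 passed by edgeR, DESeq2 or limma-voom. Their median was 0.0031. By edgeR 0 of them had an unadjusted p under 0.05, where 3.19% of all tested genes were higher and 3.45% lower. Camk2a, a calcium-dependent kinase of excitatory neurons and the most expressed of them, had a log2 fold change of 0.08 ± 0.05 (SE). The 9 motor genes, which move neurofilaments along axons, were all tested and 0 passed by any of these tools, with a median of 0.03. By edgeR 0 were lower and 1 was higher at an unadjusted p under 0.05, beside the same 3.45% and 3.19% of all tested genes. It was Dync1h1, the dynein heavy chain, also chosen after its values were seen, with 808, 759.7 and 775 CPM against 696, 667 and 743 CPM, a log2 fold change of 0.15 ± 0.06 (SE) and an adjusted p of 0.742. Kif5a, the neuronal kinesin, had 0.07 ± 0.05 and Kif5c 0.02 ± 0.05 (SE).

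Nes carries the Entrez identifier 18008, Gfap 14580, Vim 22352, Synm 233335, Nefl 18039, Nefm 18040, Nefh 380684 and Ina 226180. The remaining positions, in mm10, were chromosome 2 from 13574311 to 13582826 for Vim, chromosome 11 from 102887336 to 102897200 for Gfap, chromosome 7 from 67730161 to 67759742 for Synm, chromosome 11 from 4938754 to 4948064 for Nefh and chromosome 19 from 47014681 to 47025327 for Ina. Nefl and Nefm are neighbours on chromosome 14, from 68083863 to 68089095 and from 68119545 to 68125004. They lie on opposite strands 30.4 kb apart in RefSeq, while GENCODE M21 extends them until they overlap. In GENCODE Synm also overlaps Ttc23, Ina overlaps Nt5c2 and Gfap overlaps the non-coding Gm26668, each on the opposite strand. The sources used here do not give the strand setting of the counting, and reads of such partners may have been mixed. Counts were whole numbers in all 6 libraries for 6 of the genes and fractional in all 6 for Nefh and Ina, whose reads were thus shared in part with other sequences by the estimation.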

How the data were processed

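RNA was sequenced from 6 cortex libraries, 3 labelled AAV-GFP-GA and 3 labelled AAV-GFP. The deposited table gives expected counts per gene with no scaling to depth; Bowtie2 2.2.5, RSEM 1.2.12 and mm10 are named in the submitters' processing notes, without their role. The unit was read from the values, of which 7.32% to 7.81% per library were not whole. The sources used here do not give the annotation or strand setting. Of 18284 rows, 1 without a gene name was omitted.

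Counts were rounded, filtered with edgeR's filterByExpr and normalized with TMM factors between 0.991 and 1.01. The groups were compared with edgeR's quasi-likelihood test (edgeR 4.0.16, R 4.3.3), two-sided, without covariates, with Benjamini-Hochberg adjustment over 14324 genes at 0.05. DESeq2 1.42.0, limma-voom (limma 3.58.1), other scalings and filters, a replicate block, a term for library sets and the omission of each library were alternatives. The members and lists were chosen with earlier results of these data known. Genes were named by rule: the 8 members, list members past the threshold or otherwise the 2 most expressed, and the 5 nearest profiles to Nes, Gfap and Nefl. Genes at an unadjusted p under 0.05 were named after their values were seen. For 1 gene named by this rule, values are not reported here. Coding lengths are from GENCODE M21 and positions from RefSeq.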

Additional observations from a re-analysis of the deposited data

How the results depend on the processing

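Nes passed the adjusted threshold under all 14 alternatives, with log2 fold changes of 1.15 to 1.51, and the other 7 filament genes passed under none. Nes was chosen by this contrast and the alternatives refit the same libraries, so its calls are no independent support. The ranges were 0.13 to 0.74 for Gfap, 0.18 to 0.38 for Vim, 0.11 to 0.13 for Nefl and 0.02 to 0.07 for Ina. The signs of the genes near 0 changed when single libraries were left out, from -0.06 to 0.06 for Synm, from -0.03 to 0.04 for Nefm and from -0.13 to 0.03 for Nefh. The count of genes over the whole table was 3 higher and 0 lower. DESeq2 called 9 higher and 1 lower, and a term that sets AAV-GFP replicates 1 and 2, the libraries with few intestinal reads, apart from the rest called 6 higher and 3 lower. Of those 6, 4 were the Y-linked genes Ddx3y, Eif2s3y, Kdm5d and Uty, which had 1 read in AAV-GFP replicate 3, the lone GFP library left in that comparison. Leaving out single libraries gave 2 to 38 higher and 0 to 34 lower, with 38 and 34 without AAV-GFP replicate 3 and 5 and 0 without AAV-GFP-GA replicate 3, and 1 lower without either AAV-GFP replicate 1 or AAV-GFP-GA replicate 2. The cause of the other differences was not tested. No gene of the 5 filament system lists passed under any alternative. With raw counts in place of counts per coding length, Nes took 2.08% of the 8 genes with poly-GA and 0.943% with GFP, and with GFP the glial genes took 24.0% and the neuronal genes 75.0%, because long transcripts then weigh more.

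The labels do not say that the replicate numbers pair the libraries, and the values here do not settle it. Replicate 3 of each group was lowest in Gfap and in the dentate markers. Deviations of same-numbered libraries correlated at 0.104, -0.121 and 0.065 for replicates 1, 2 and 3, and most libraries correlated best with another number. The highest correlation, 0.140, was of AAV-GFP-GA replicate 2 with AAV-GFP replicate 1 and of AAV-GFP-GA replicate 3 with AAV-GFP replicate 2. With the replicate block 2 genes were called higher and 0 lower, Nes had 1.27 ± 0.11 (SE), and the SE of Gfap was 0.12 in place of 0.20, with a log2 fold change of 0.40.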

Other observations

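Keratins of simple epithelia were present at a few reads in these cortex libraries and were picked out after their values were seen. For Krt19 there were 11, 7 and 17 reads in the poly-GA libraries against 0, 2 and 8 in the GFP libraries. Krt20 had 18, 17 and 23 reads against 10, 6 and 19, and Krt8 had 24, 35 and 43 against 22, 9 and 44. In these 3 genes AAV-GFP replicates 1 and 2 were the lowest libraries, as they were for the 19 intestinal epithelium genes, with 35 and 33 reads against 218 to 359 in the others. Krt18, the usual partner of Krt8, did not share this order, with 17, 32 and 7 reads against 38, 16 and 22. The part of carried-over epithelial RNA in these keratin reads was not tested.

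Dsp, which encodes the plakin desmoplakin, ranged widely within each group. Its reads numbered 162, 94 and 5 in the poly-GA libraries against 215, 137 and 29 in the GFP libraries, a log2 fold change of -0.61 ± 0.75 (SE). Desmoplakin is also known as a transcript of dentate granule cells, and the 5 other dentate markers had 1188, 1074 and 579 reads against 1420, 989 and 504. Replicate 3 of each group was lowest in both. This pattern was noticed after the values were seen, and the amount of hippocampal tissue in the libraries was not tested.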
